A study of Homo sapiens with 4 samples.

Results

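The genes described here are 10 components of the circadian clock, measured by RNA-seq in SKOV3 cells grown flat on a tissue culture plate (TCP) and as tumor spheroids on polymer X (polyX). They were chosen by symbol: ARNTL and CLOCK form the activator arm, PER1, PER2, PER3, CRY1, CRY2, NR1D1 and NR1D2 form the repressor arm, and DBP is a direct output gene. All 10 were present among the 19475 gene symbols of the expression table. Where a symbol had several transcripts, the transcript with the highest mean FPKM over the 4 libraries was kept. FPKM is the number of fragments on a transcript scaled to its exon length and to the depth of the library, so that levels of different genes can be set side by side per length.

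SKOV3 is an established human ovarian cancer cell line, and the sample titles name no genetic change or drug treatment. The 2 TCP libraries were taken at day 0 and the 2 polyX libraries at day 8, when the cells had formed spheroids on the polymer-coated surface. Surface, days in culture and spheroid growth therefore changed together and cannot be told apart. The culture text that accompanies the samples gives serum replacement medium for all of them, whereas the study's methods describe maintenance of the line in fetal bovine serum and spheroid culture in serum replacement, so the medium of the TCP cells is uncertain. Spheroids were also dissociated with accutase at intervals during culture. The clock time of harvest and the interval since the last change of medium are not given in the sources used here.

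The circadian clock is a feedback loop of transcription that runs with a period of about a day in most cell types. The ARNTL protein (also called BMAL1) pairs with CLOCK and switches on genes that carry an E-box, among them the PER and CRY genes, whose proteins return to the nucleus and block ARNTL and CLOCK. A second loop runs through NR1D1 and NR1D2 (REV-ERB alpha and beta), nuclear receptors that repress ARNTL, and the ROR receptors, which activate it at the same DNA element. The mRNAs of these genes rise and fall over the day, and a change of serum can reset them in cultured cells. With 1 time point in each group, a shift of phase and a change of average level cannot be told apart. In bulk RNA, fewer cells that express a gene and less RNA of it per cell cannot be told apart either.

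The libraries held between 38402000 and 44917000 tags, as read from the spacing of the low values, and all 10 clock genes lay above 1 FPKM in every library. The least covered was DBP on TCP, with 107 and 99 tags. Replicates correlated at 0.998 on TCP and 0.997 on polyX over all genes tested, against 0.854 to 0.862 between the groups. Of the epithelial markers, KRT8 was between 143 and 269 FPKM and KRT18 between 89.3 and 123 FPKM, and ERBB2, which is amplified in this line, was at 198 and 206 FPKM on TCP and 913 and 860 FPKM on polyX. KRT19 stayed under 1 FPKM, and EPCAM was at 0.168 and 0.104 FPKM on TCP and 1.39 and 1.32 FPKM on polyX. Markers of other cell types were low, with CDH5, ALB and DES at or under 0.134 FPKM in every library. The leukocyte marker PTPRC was at 0.468 and 0.530 FPKM and the endothelial marker PECAM1 at 0.573 and 0.458 FPKM on polyX, where TCP had at most 0.005 FPKM of either, and their part in the results below was not tested.

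Most clock genes differed between the cultures, and the arms moved apart. NR1D1, DBP, PER1 and CRY2 were higher on polyX by 2.53-fold to 8.90-fold, and CRY1 was lower by 2.51-fold. PER2 and PER3 rose by less than 2-fold, ARNTL and CLOCK fell by about 1.41-fold each, and NR1D2 was at 9.25 ± 0.155 FPKM (SD, n = 2) on TCP and 9.78 ± 0.980 FPKM on polyX. A call, higher or lower, needed both an adjusted p below 0.05 and a difference of 1 or more in log2(FPKM + 1). By that rule 4 of the 10 clock genes were called higher, where 10.7% of the 11964 genes tested were, and 1 was called lower, where 9.45% were. By the adjusted p alone 6 rose and 3 fell, that is 9 of 10 against 81.0% of all genes, so the share of clock genes that passed was close to the background. The same holds for overlap, since in 9 of 10 clock genes the groups did not overlap and this was so for 90.4% of all genes. The median difference of the 10 was 0.56 on the log2 scale, beside -0.06 over all genes tested.

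**Figure D1:**
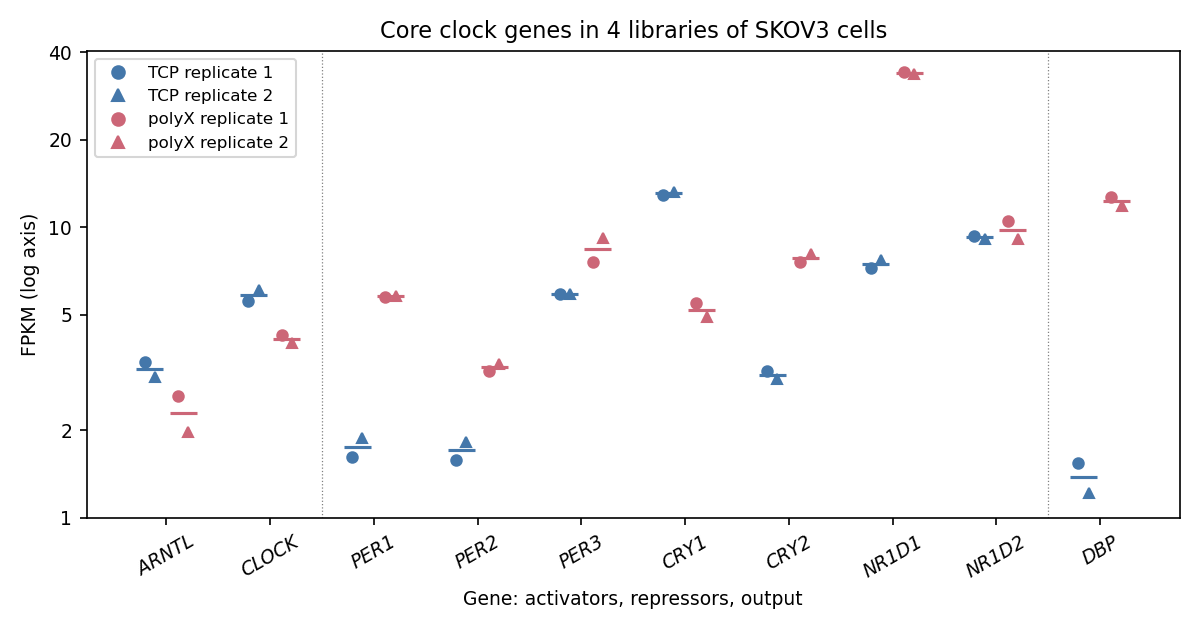
FPKM of each of the 10 clock genes in the 4 libraries, on a log axis, with 1 point per library and a bar at the mean of each group of 2. The TCP and polyX points separate in 9 genes and overlap in NR1D2, and the widest gaps are those of DBP and NR1D1.

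The stretch of DNA around each start site shows which clock elements the genes carry there. RefSeq promoter windows of GRCh38.p14, 250 bases before to 50 after an annotated start, were found for 10 of 10 genes, in 15 windows, with ARNTL listed under its other name BMAL1. They were searched on both strands for the E-box CACGTG (in 7.26% of all 35116 windows of this length), the E-box variant CACGTT (5.34%), the D-box TTATGTAA (0.886%), the REV-ERB and ROR element core TAGGTCA or TGGGTCA (5.69%) and the cAMP response element TGACGTCA (1.85%). An E-box was found in 2 of the 10 genes, its variant in 5, a D-box in 2, the receptor element in 4 and the cAMP element in 0. These are counts of genes with a match in any of their windows, and some genes had more than 1 window. They therefore cannot be set directly against the shares of windows. No match overlapped another, and DBP was the 1 gene without a match. The 6 windows shown are those of the activator ARNTL and of the repressors whose changes differed most, namely PER1, the CRY pair and the REV-ERB pair, written 5′ to 3′ on the strand of the gene with motif matches in capitals. ARNTL, CRY2 and NR1D2 each have another annotated start further upstream, whose window held no match and is not shown. A match is a description of letters, not a bound site.
BMAL1 (chr11:13277540-13277839, plus strand): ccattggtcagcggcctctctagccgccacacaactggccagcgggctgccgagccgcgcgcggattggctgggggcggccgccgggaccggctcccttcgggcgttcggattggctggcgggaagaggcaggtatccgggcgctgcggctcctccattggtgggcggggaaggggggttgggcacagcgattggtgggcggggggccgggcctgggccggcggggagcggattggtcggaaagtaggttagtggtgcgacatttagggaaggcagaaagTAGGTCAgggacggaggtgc
PER1 (chr17:8152355-8152654, minus strand): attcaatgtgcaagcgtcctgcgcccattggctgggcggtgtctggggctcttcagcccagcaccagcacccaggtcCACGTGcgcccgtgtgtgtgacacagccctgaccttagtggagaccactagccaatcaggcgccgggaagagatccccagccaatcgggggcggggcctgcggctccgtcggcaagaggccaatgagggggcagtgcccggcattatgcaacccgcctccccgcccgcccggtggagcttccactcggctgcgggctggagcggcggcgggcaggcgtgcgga
CRY1 (chr12:107093500-107093799, minus strand): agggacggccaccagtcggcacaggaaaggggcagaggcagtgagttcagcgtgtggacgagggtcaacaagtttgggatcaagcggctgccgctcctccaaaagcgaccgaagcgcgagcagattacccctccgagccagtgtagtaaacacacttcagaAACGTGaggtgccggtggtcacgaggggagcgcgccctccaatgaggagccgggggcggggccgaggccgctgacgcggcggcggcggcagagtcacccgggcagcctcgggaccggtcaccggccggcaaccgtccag
CRY2 (chr11:45847225-45847524, plus strand): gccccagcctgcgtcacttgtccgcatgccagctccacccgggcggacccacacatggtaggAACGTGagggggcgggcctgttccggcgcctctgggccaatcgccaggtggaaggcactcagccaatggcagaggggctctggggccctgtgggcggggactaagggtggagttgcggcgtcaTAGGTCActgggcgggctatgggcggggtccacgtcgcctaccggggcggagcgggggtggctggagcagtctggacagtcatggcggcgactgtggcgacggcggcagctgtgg
NR1D1 (chr17:40100540-40100839, minus strand): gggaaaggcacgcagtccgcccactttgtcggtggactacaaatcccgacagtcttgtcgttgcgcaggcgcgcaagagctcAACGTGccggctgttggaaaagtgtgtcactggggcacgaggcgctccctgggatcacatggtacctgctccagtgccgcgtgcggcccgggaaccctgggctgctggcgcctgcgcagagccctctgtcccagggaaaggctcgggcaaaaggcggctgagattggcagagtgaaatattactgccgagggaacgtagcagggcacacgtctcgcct
NR1D2 (chr3:23945871-23946170, plus strand): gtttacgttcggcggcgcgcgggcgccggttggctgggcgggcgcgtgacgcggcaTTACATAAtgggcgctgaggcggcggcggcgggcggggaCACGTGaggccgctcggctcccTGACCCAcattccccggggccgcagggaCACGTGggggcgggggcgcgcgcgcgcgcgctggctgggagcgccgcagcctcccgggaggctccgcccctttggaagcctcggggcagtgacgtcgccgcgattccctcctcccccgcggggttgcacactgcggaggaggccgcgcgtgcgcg
The capitals are the receptor element at +31 from the start in BMAL1, the E-box at -173 in PER1, the E-box variant at -89 in CRY1 and at -168 in NR1D1, the variant at -188 and the receptor element at -65 in CRY2, and in NR1D2 the D-box at -194, the E-boxes at -155 and -105 and the receptor element at -133. CRY1, NR1D1 and PER2, whose window is not shown, carried the E-box variant as their only match. CRY1 fell, while NR1D1 and PER2 rose. NR1D2 carried the most matches of the windows searched in the 10 genes and did not pass the test of a change. A relation between matches and changes was not tested, and elements outside these windows were not searched.

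Both genes of the activator arm were lower on polyX, while 43.6% of all genes tested fell by the adjusted p alone. ARNTL (NM_001351810, hg19 chromosome 11, 13299274 to 13408812, plus strand) encodes the subunit that pairs with CLOCK, and it stood at 3.43 and 3.06 FPKM on TCP and at 2.62 and 1.98 FPKM on polyX. The groups did not overlap, but the 2 polyX libraries differed from each other by more than the 2 TCP libraries did. The difference in log2(FPKM + 1) was -0.37 (SE 0.10, adjusted p = 0.0084), and without polyX replicate 2 it was -0.23 with an adjusted p of 0.0633. It was -0.51 without polyX replicate 1, -0.53 with transcripts summed and -0.60 under quantile normalization. Taken singly, all 27 ARNTL transcripts of the table gave differences between -0.39 and -0.35. Their spans overlap, so the sum can count a read more than once, and the 1 added to FPKM weighs less on it. CLOCK (NM_004898, chromosome 4, 56294068 to 56413076, minus strand), which encodes the partner subunit, had 5.58 and 6.09 FPKM on TCP against 4.25 and 4.01 FPKM on polyX. Its fall of 0.41 on the log2 scale, with an SE of 0.07 and an adjusted p of 0.00059, was close in size to that of ARNTL. Neither gene reached the fold change needed for a call. The absolute difference was larger than that of 37.8% of the genes tested for ARNTL and of 42.2% for CLOCK.

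The 3 PER genes, whose proteins carry CRY into the nucleus, all rose on polyX but by unequal amounts. Of all genes tested, 37.4% rose by the adjusted p alone. PER1 (NM_002616, chromosome 17, 8043788 to 8055753, minus strand) was at 1.62 and 1.88 FPKM on TCP and at 5.77 and 5.79 FPKM on polyX, a 3.30-fold increase and a log2 difference of 1.30 (SE 0.08, adjusted p = 3.58e-07). PER2 (NM_022817, chromosome 2, 239152679 to 239197207, minus strand) began at nearly the same level, 1.58 and 1.83 FPKM, and reached 3.21 and 3.39 FPKM. PER1 and PER2 were thus alike on TCP and apart on polyX. The log2 difference of PER2 was 0.67 (SE 0.08, adjusted p = 4.48e-05), short of a call, and 0.41 after quantile normalization. PER3 (NM_001289862, chromosome 1, 7844489 to 7905240, plus strand) was the most abundant PER transcript in both cultures, at 5.89 and 5.90 FPKM on TCP and 7.61 and 9.21 FPKM on polyX. Its rise was the smallest of the 3, 0.44 on the log2 scale (SE 0.09, adjusted p = 0.00104), and its polyX libraries had an SD of 1.13 FPKM.

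The CRY paralogs moved in opposite directions. CRY1 (NM_004075, chromosome 12, 107385143 to 107487635, minus strand) and CRY2 (NM_021117, chromosome 11, 45868957 to 45904799, plus strand) encode the cryptochromes that inhibit ARNTL and CLOCK directly. CRY1 was the most abundant of the 10 genes on TCP, with 12.9 and 13.2 FPKM, and held 5.49 and 4.92 FPKM on polyX. It was the only clock gene of the 10 called lower, with a log2 difference of -1.18 (SE 0.07, adjusted p = 3.29e-07). CRY2 went from 3.21 and 3.01 FPKM to 7.59 and 8.12 FPKM, a log2 difference of 1.11 (SE 0.07, adjusted p = 6.27e-07). The more abundant cryptochrome transcript was therefore CRY1 in both TCP libraries and CRY2 in both polyX libraries.

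Of the REV-ERB receptors, NR1D1 rose and NR1D2 did not pass the test. NR1D1 (NM_021724, chromosome 17, 38249037 to 38256978, minus strand) was at 7.23 and 7.70 FPKM on TCP and 34.3 and 33.7 FPKM on polyX, which made it the most abundant of the 10 genes there. The change was 4.56-fold, or 2.05 on the log2 scale (SE 0.06, adjusted p = 5.05e-09). NR1D2 (NM_001145425, chromosome 3, 23987612 to 24022109, plus strand) had 9.36 and 9.14 FPKM on TCP and 10.5 and 9.09 FPKM on polyX. The lowest NR1D2 value of all was in a polyX library, so its groups overlapped. The log2 difference was 0.07 with a 95% confidence interval of -0.10 to 0.24 (adjusted p = 0.408), an interval that does not reach the change of any called gene.

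The count of NR1D1 may include reads of another gene, because its last exons lie opposite those of THRA, the thyroid hormone receptor alpha gene, and tags were counted on both strands. The transcripts overlap by 1084 bases in the coordinates of the table, where none of the other 9 genes overlapped another gene. In the exons of all transcripts of the reference annotation (GENCODE), which is wider, the stretch shared with THRA is 263 bases, or 9.49% of the NR1D1 exonic bases. By that annotation DBP shares 661 bases (10.1%) with SPHK2 and PER3 shares 868 bases (10.7%) with UTS2, both on the opposite strand. UTS2 had almost no reads, at 0 FPKM in both TCP libraries and at 0.044 and 0 FPKM on polyX. SPHK2 was at 4.97 and 6.02 FPKM on TCP and at 4.06 and 3.90 FPKM on polyX. At a common depth of 40000000 tags per library, NR1D1 went from 826 to 3763 tags, a gain of 2937. The THRA transcripts that reach into NR1D1 gained 597 to 831 tags, between 1.30-fold and 1.44-fold, and the THRA transcript that ends before NR1D1 gained 113 tags, or 1.06-fold. Reads of both genes in a shared stretch cannot be told apart, and their part in the differences was not tested.

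**Figure D2:**
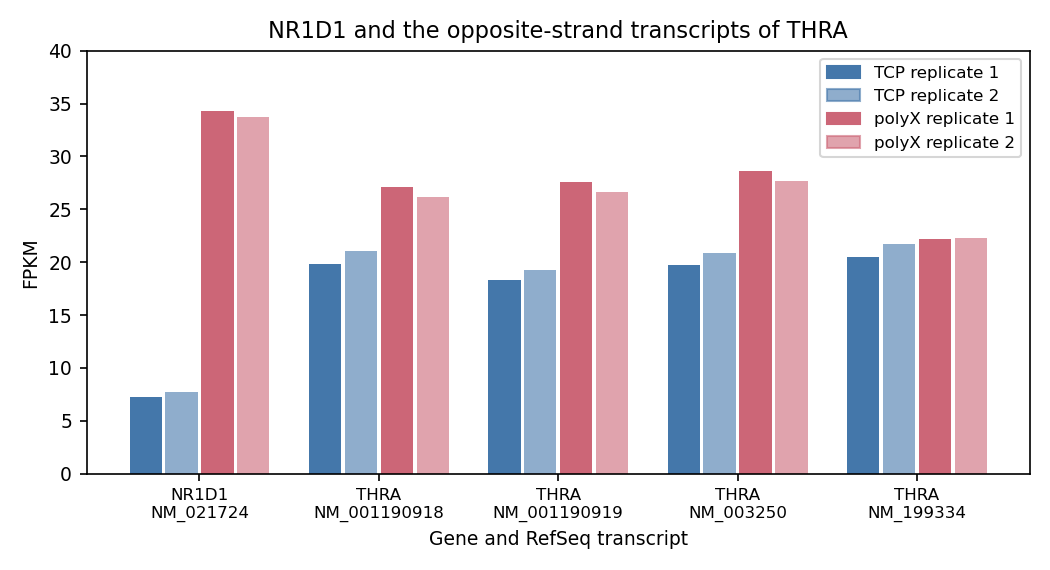
FPKM of NR1D1 and of the THRA transcripts of the opposite strand, with 1 bar per library from 0. NR1D1 rises from 7.23 and 7.70 to 34.3 and 33.7, the THRA transcripts that reach into it (NM_001190918, NM_001190919 and NM_003250) are higher on polyX by 1.30-fold to 1.44-fold, and NM_199334, which ends before it, is at 20.5 and 21.7 on TCP and 22.2 and 22.3 on polyX.

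DBP showed the largest change of the 10 genes. It encodes a PAR bZIP transcription factor that binds D-boxes and is a textbook direct target of ARNTL and CLOCK. DBP (NM_001352, chromosome 19, 49133817 to 49140807, minus strand) was at 1.54 and 1.22 FPKM on TCP, the lowest mean of the 10, and at 12.7 and 11.9 FPKM on polyX, where only NR1D1 was higher. That was an 8.90-fold increase and a log2 difference of 2.48 (SE 0.09, 95% confidence interval 2.29 to 2.68, adjusted p = 1.13e-08). The absolute difference was larger than that of 98.4% of the genes tested.

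The arms were compared by their mean log2(FPKM + 1) in each library. The 7 repressors averaged 2.55 and 2.59 on TCP and 3.20 and 3.21 on polyX. The 2 activators averaged 2.43 and 2.42 on TCP and 2.12 and 1.95 on polyX. Repressors and activators were thus at similar mean levels on TCP and apart on polyX. The repressor mean minus the activator mean was 0.11 and 0.16 on TCP and 1.08 and 1.26 on polyX, or 0.14 ± 0.04 (SD, n = 2) against 1.17 ± 0.13. The change of 1.03 log2 units is given as a description without a p. It was not shared by every repressor, since CRY1 fell, NR1D2 did not pass the test, and the median difference was 0.67 in the repressor arm and -0.39 in the activator arm.

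Within a library, the ratio of related genes showed how unequally they moved. Measured in FPKM, the CRY1 to CRY2 ratio of the group means was 4.21 on TCP and 0.662 on polyX. The NR1D1 to NR1D2 ratio was 0.807 on TCP and 3.48 on polyX, so the more abundant REV-ERB transcript also changed from one paralog to the other. PER1 to PER2 was 1.03 on TCP and 1.75 on polyX. For the activator partners the ARNTL to CLOCK ratio of the means was 0.556 on TCP and 0.557 on polyX, while single libraries ranged from 0.503 to 0.615 on TCP and from 0.494 to 0.617 on polyX.

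The same ratios were tested over libraries as differences of log2(FPKM + 1). CRY1 over CRY2 was 1.73 and 1.83 on TCP and -0.41 and -0.62 on polyX, a change of -2.29. NR1D1 over NR1D2 was -0.33 and -0.22 on TCP and 1.62 and 1.78 on polyX, a change of 1.98. PER1 over PER2 was 0.02 and 0.02 on TCP and 0.69 and 0.63 on polyX, a change of 0.63. In these 3 pairs the groups did not overlap, and the two-sided exact permutation p was 0.3333, the smallest that 2 against 2 libraries allow, so that none could pass 0.05 (0.444 after adjustment over the 4 pairs). For ARNTL over CLOCK the libraries overlapped, with a change of 0.05 (exact permutation p = 0.667) whose sign depended on the processing.

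**Figure D3:**
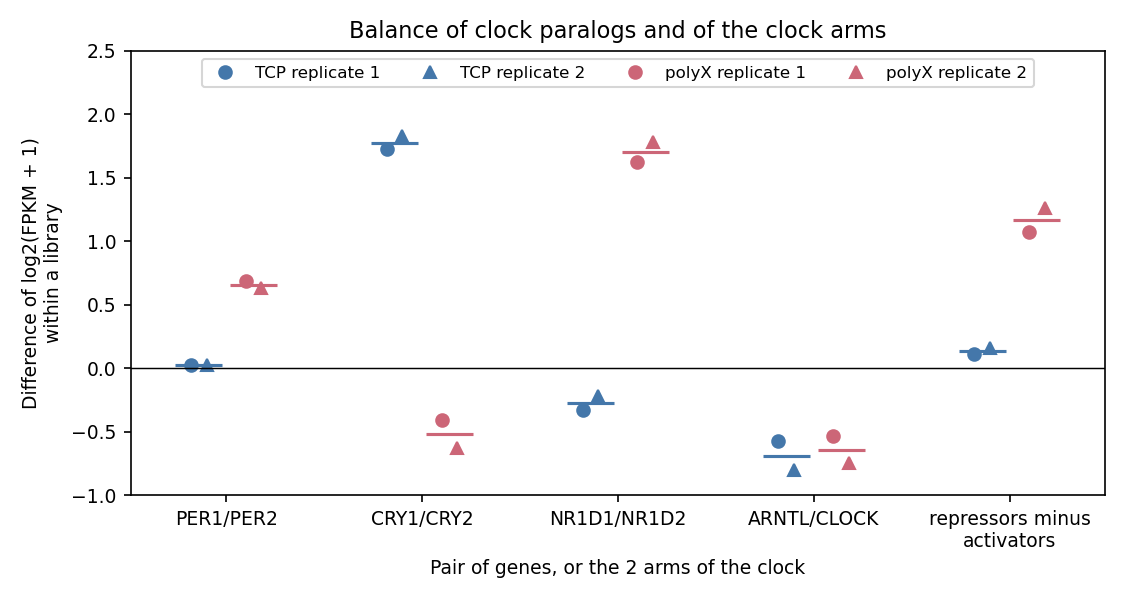
Difference of log2(FPKM + 1) within a library for the paired clock genes, and the repressor minus the activator mean, with 1 point per library, a bar at each group mean and a line at 0 for equal levels. CRY1/CRY2 and NR1D1/NR1D2 cross the line between TCP and polyX in opposite directions, PER1/PER2 and the arms move up from near it, and the ARNTL/CLOCK points of the groups overlap.

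Beyond the 10 genes, 43 genes tied to the clock were listed by role. Of these, 42 were found in the table and 38 were expressed highly enough to be tested. The test called 4 higher and 7 lower, and by the adjusted p alone 15 rose and 21 fell. Of all genes, 10.7% were called higher and 9.45% lower, while 37.4% rose and 43.6% fell by the adjusted p alone. The median difference of the 38 was -0.26. The lists differed among themselves and are given in turn, with no set test.

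**Figure D4:**
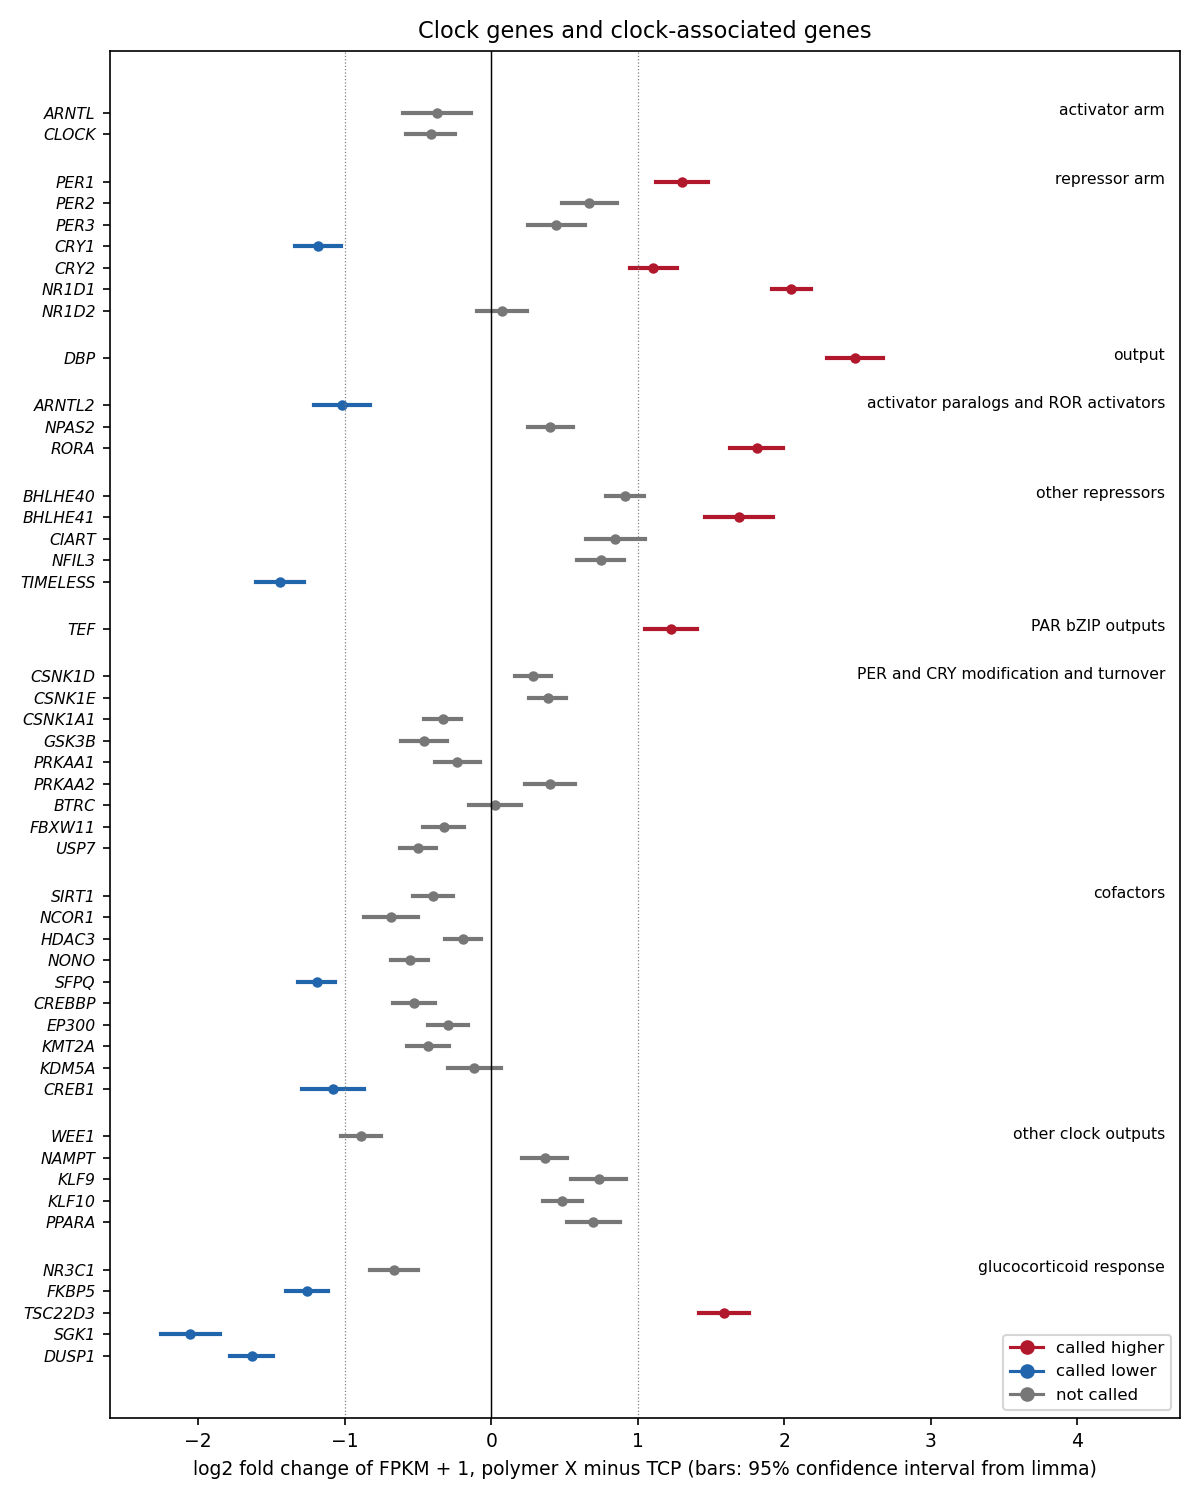
Difference polyX minus TCP in log2(FPKM + 1) for the 10 clock genes and the 38 clock-associated genes tested, grouped by role, with points at the limma estimate, bars for 95% confidence intervals and dotted lines at the fold change needed for a call. Among the 10, the points of DBP, NR1D1, PER1 and CRY2 lie beyond the upper line and that of CRY1 beyond the lower one, the interval of NR1D2 spans 0, and below them 9 of the 10 cofactors have intervals wholly under 0.

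The first list held the paralogs of the activators and the ROR receptors, of which 3 of 4 were tested, with a median of 0.40. The test called 1 higher, where 10.7% of all genes were, and 1 lower, where 9.45% were. RORA, which activates ARNTL through the element that NR1D1 and NR1D2 also bind, went from 0.432 and 0.483 FPKM on TCP to 3.97 and 4.27 FPKM on polyX (log2 difference 1.81, adjusted p = 5.28e-08). RORA entered the test only through its polyX libraries, and its difference was 2.92 with a pseudocount of 0.1. RORB was at or under 0.025 FPKM throughout. ARNTL2, a paralog of ARNTL, was at 20.9 and 21.6 FPKM on TCP and 11.0 and 9.06 FPKM on polyX, with a log2 difference of -1.02 (adjusted p = 3.11e-06) that sat at the edge of the call. It lost the call without TCP replicate 2 (-0.997) and without polyX replicate 2 (-0.89), as well as under quantile (-0.89) and median scaling (-0.98). NPAS2, which can stand in for CLOCK, rose from 4.44 and 4.33 to 6.18 and 6.05 FPKM, a log2 difference of 0.40 (adjusted p = 4e-04). ARNTL2 thus fell together with ARNTL, whereas NPAS2 rose and CLOCK fell.

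Among 5 other repressors, all tested, 4 rose and 1 fell by the adjusted p alone, which 81.0% of all genes passed in either direction, with a median of 0.85. Of the 5, 1 was called higher, where 10.7% of all genes were, and 1 lower, where 9.45% were. BHLHE41 (DEC2), which competes for E-boxes, was called higher, from 0.911 and 1.33 FPKM to 6.11 and 5.52 FPKM (log2 difference 1.69, adjusted p = 4.19e-07), and it passed the filter on low values only through its polyX libraries. BHLHE40 (DEC1), its far more abundant paralog, had 118 and 122 FPKM on TCP and 231 and 223 FPKM on polyX. That change, 0.91 on the log2 scale (adjusted p = 4.88e-07), missed the call and reached it under quantile normalization at 1.25. CIART, an inhibitor of ARNTL and CLOCK, rose by 0.85 (adjusted p = 1.65e-05), and NFIL3, which represses through D-boxes, by 0.75 (adjusted p = 8.61e-06). TIMELESS was the exception, with 30.2 and 30.8 FPKM on TCP and 11.4 and 9.85 FPKM on polyX (log2 difference -1.44, adjusted p = 1.17e-07). In mammalian cells TIMELESS is best known for its part in DNA replication forks.

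The other PAR bZIP factors, relatives of DBP that bind the same D-box, were TEF and HLF. TEF was called higher, at 4.43 and 4.75 FPKM on TCP and 11.3 and 12.9 FPKM on polyX (log2 difference 1.23, adjusted p = 5.83e-07). HLF was listed at 0 in both TCP libraries and at 0.080 and 0.114 FPKM on polyX, too low to be tested. Counted against a floor of 3 tags per library, it was at least 5.73-fold higher on polyX, a bound that covers counting error only. All 3 PAR bZIP genes, DBP included, thus had higher values on polyX. The 2 that could be tested, DBP and TEF, were called higher, where 10.7% of all genes were.

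Kinases, ligases and proteases that act on PER and CRY proteins had small differences. Of 11 listed, 9 were tested and none was called by limma, where 3 rose and 5 fell at an adjusted p under 0.05, a threshold that 81.0% of all genes passed, with a median of -0.23. The largest differences were those of USP7, a deubiquitinase (-0.50, adjusted p = 2.2e-05), and of the kinase gene GSK3B (-0.46). PRKAA2, a catalytic subunit gene of AMPK, rose by 0.40 and CSNK1E, the casein kinase 1 epsilon gene, by 0.38, while CSNK1A1 fell by 0.33, a difference that quantile normalization brought to 0.01. In the cofactor list all 10 were tested, 9 fell at an adjusted p under 0.05, where 43.6% of all genes did, none rose, and the median was -0.48.

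SFPQ, an RNA-binding partner of PER complexes, was called lower, from 132 and 134 FPKM to 59.4 and 56.1 FPKM (log2 difference -1.19, adjusted p = 7.81e-08), and its log2 difference was -0.84 under quantile normalization, which ended the call. CREB1, the factor through which cAMP induces PER1, was called lower as well, from 19.7 and 18.7 FPKM to 7.59 and 9.61 FPKM (log2 difference -1.08, adjusted p = 4.47e-06). That call depended on the transcript and the library, since the difference was -0.69 when all its transcripts were summed, -0.93 without polyX replicate 1 and -0.97 under quantile normalization. NCOR1, the corepressor that REV-ERB receptors recruit, fell by 0.69, NONO, the partner of SFPQ, by 0.56, and CREBBP, a histone acetyltransferase gene, by 0.53. NONO fell by 0.19 and NCOR1 by 0.44 under quantile normalization and the sum of transcripts, respectively.

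Other clock outputs did not reach a call. By the adjusted p alone 4 of 5 rose, where 37.4% of all genes did, and 1 fell, where 43.6% did, with a median of 0.48. KLF9, a clock- and hormone-driven transcription factor gene, rose by 0.73 (adjusted p = 2.51e-05) and PPARA, a lipid-sensing nuclear receptor gene, by 0.70. KLF9 was at 0.961 and 1.02 FPKM on TCP and passed the filter on low values only through its polyX libraries. KLF10 rose by 0.48 and NAMPT, the rate-limiting enzyme of NAD salvage, by 0.36. WEE1, the kinase gene that holds cells before mitosis, fell from 16.7 and 17.3 FPKM to 8.60 and 8.82 FPKM (log2 difference -0.89, adjusted p = 7.82e-07). KLF9 reached 1.14 with a pseudocount of 0.1 and 0.40 under quantile normalization, and PPARA was at 0.45 there.

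Glucocorticoids reset clocks in cultured cells and induce PER1, so genes of that response were listed too. Of 6, 5 were tested, with a median of -1.26. The test called 1 higher, where 10.7% of all genes were, and 3 lower, where 9.45% were. TSC22D3 (GILZ) rose from 5.11 and 5.82 FPKM to 17.7 and 19.1 FPKM (log2 difference 1.59, adjusted p = 8.24e-08). SGK1 fell from 7.62 and 7.65 FPKM to 1.25 and 0.924 FPKM (-2.05, adjusted p = 4.65e-08). It passed the filter on low values only through its TCP libraries. DUSP1, a phosphatase gene that is also an immediate early gene, fell from 279 and 272 FPKM to 83.7 and 92.5 FPKM (-1.64, adjusted p = 2.69e-08). FKBP5, a chaperone gene of the receptor, fell from 14.1 and 13.8 FPKM to 5.40 and 5.13 FPKM (-1.26, adjusted p = 1.23e-07). The receptor gene itself, NR3C1, fell by 0.67 (adjusted p = 1.95e-05), and ZBTB16 was at or under 0.012 FPKM. KLF9, counted above with the other outputs, also belongs to this response and rose by 0.73. PER1, TSC22D3 and KLF9 were therefore higher in the same libraries in which SGK1, DUSP1 and FKBP5 were lower.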

How the data were processed

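RNA-seq libraries of SKOV3 cells on TCP (day 0, n = 2) and on polyX (day 8, n = 2) were analysed from 1 table that the authors deposited, which holds FPKM values for 50078 RefSeq transcripts. The submitters' processing notes name STAR 2.4.0, HOMER, DESeq and hg19, and per the file headers the authors counted tags in exons on both strands with HOMER and scaled them to FPKM. The HOMER version and read trimming are not given in the sources used here. The kit is labelled directional, so counting on both strands mixes overlapping genes of opposite strands.

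For each symbol the transcript with the highest mean was kept (10500 of 19475 symbols had more than 1). Genes with at least 1 FPKM in at least 2 libraries (11964) were fitted with limma 3.58.1 (R 4.3.3) on log2(FPKM + 1) with a variance trend, two-sided, with Benjamini-Hochberg adjustment over all genes tested. A fold change on this scale understates that of low genes. No count test was run, since the values are FPKM, although low values were whole tags within 0.1 at the depths given. Paralog ratios were tested by exact permutation. Nothing in the labels says that replicates came from separate cultures, so p-values measure the spread between these libraries, which may be technical. The script was tested on simulated data.

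The 10 genes and all lists were chosen with earlier results of these data known. A few listed genes are not reported here and are left out of every list count. Named are the 10 genes, every called gene of the lists, and those not called that were among the 5 largest absolute differences of their list. The ones outside this rule are RORB, HLF and ZBTB16, named as untested members of their lists, and BTRC and HDAC3, named because their sign depended on the processing. Alternatives were a pseudocount of 0.1, no filter, a mean of at least 5 FPKM, quantile and median scaling, the sum of transcripts, no variance trend, a replicate block, other fold change minimums and leaving out each library. Promoters came from RefSeq (GRCh38.p14), whose coordinates were not mixed with the hg19 coordinates of the table. Figures were drawn with matplotlib 3.10.9 from tables made with Python 3.11.15 and pandas 2.3.3.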

Additional observations from a re-analysis of the deposited data

How the results depend on the processing

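The 4 higher calls and the 1 lower call among the 10 clock genes held in each alternative that tested those genes. A mean of at least 5 FPKM left PER1 untested and so gave 3 higher and 1 lower. With no fold change minimum 3 of the 10 were lower, and 15 listed clock-associated genes were higher and 21 lower, against 4 and 7. With a minimum of 0.5 these were 9 and 12. A mean of at least 5 FPKM gave 2 listed genes higher and quantile normalization 4 lower. The arm difference was 1.25 with a pseudocount of 0.1, 1.14 under quantile normalization, 1.15 with transcripts summed and 0.94 to 1.12 when a library was left out. The ARNTL/CLOCK ratio changed by -0.0014 with a pseudocount of 0.1, -0.11 under quantile normalization, -0.074 with transcripts summed and -0.071 to 0.16 with a library left out, so its sign is not fixed. Under quantile normalization CSNK1A1 (0.011), BTRC (-0.23) and HDAC3 (0.060) also changed sign. With a library left out the log2 difference lay between -0.031 and 0.080 for BTRC and between -0.023 and 0.16 for NR1D2, below 0 for NR1D2 without polyX replicate 1. A pseudocount of 0.1 raised RORA to 2.92 and CIART to 1.03, and CIART reached 1.01 with transcripts summed. Adding 1 to FPKM shrinks the fold change of low genes, and less so with a pseudocount of 0.1 or on summed transcripts. The cause of shifts beyond this was not tested. Same-numbered libraries deviated together with a correlation of only 0.09, so the numbers were taken as names, and a replicate block left 4 higher and 1 lower among the 10 genes and 4 and 7 among the listed genes. Over all alternatives, 546 single-gene values stayed on their side of the threshold, 8 lost a call, 4 gained one and 5 changed sign.

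Each group held 2 libraries, and a fit without 1 of them assumes that the remaining library varies like those of the other group. The exact test could not go below 0.3333. The depth gave about 100 tags to DBP on TCP, and genes under 3 tags, as HLF on TCP, had no measured level.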

Other observations

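Genes beside the clock genes on the chromosome were also read, and the ones named here were chosen after their values were seen. Of 20 neighbours, 17 were tested, 3 were called higher and none lower by limma, where 10.7% and 9.45% of all genes were. CA11, a carbonic anhydrase-related gene 391 bases upstream of DBP on the same strand, was at 0.227 and 0.158 FPKM on TCP and at 6.53 and 7.08 FPKM on polyX, a log2 difference of 2.71 (SE 0.08, adjusted p = 6.07e-09). SPHK2, a sphingosine kinase gene 153 bases from DBP on the other side and on the opposite strand, fell by 0.38 (adjusted p = 0.00308). The gap is that of the transcripts in the table. In GENCODE exons SPHK2 and DBP share 661 bases (10.1% of DBP), and tags were counted on both strands, so their reads there cannot be told apart.

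The remaining higher calls lay on either side of PER1. VAMP2, a vesicle fusion gene upstream on the same strand, went from 4.96 and 5.65 FPKM to 12.5 and 12.4 FPKM (log2 difference 1.10, adjusted p = 7.03e-07). HES7, a bHLH repressor gene downstream, went from 0.125 and 0.040 FPKM to 1.85 and 1.82 FPKM (log2 difference 1.39, adjusted p = 4.77e-07). CA11 and HES7 passed the filter on low values only through their polyX libraries. BTBD10, which lies 730 bases from ARNTL on the opposite strand, fell by 0.67 (adjusted p = 6.87e-06) without reaching a call.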
